A study of Mus musculus with 8 samples.

Results

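Claudins are membrane proteins with 4 transmembrane segments that pair with claudins of the neighbouring cell to build the strands of the tight junction. Some of them seal the space between epithelial cells, and others line channels through which ions and water pass. Here 8 claudins of the intestinal epithelium, *Cldn2*, *Cldn3*, *Cldn4*, *Cldn7*, *Cldn8*, *Cldn12*, *Cldn15* and *Cldn23*, were followed in sorted intestinal stem cells. They were chosen by gene symbol among the 53801 genes of the count table, were all found in it by Ensembl identifier, and were all among the 16445 genes that passed the filter on low counts.

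The RNA came from Lgr5-GFP+ cells of mouse intestinal crypts, isolated by FACS with stains for EpCAM, CD45 and CD24, and the 8 libraries were made from 8 mice. All mice carried Lgr5-EGFP-IRES-CreERT2, which marks crypt stem cells with GFP and drives a tamoxifen-dependent Cre in them, and the β-catGOF allele, in which Cre produces a stabilised β-catenin and constant Wnt signalling. The groups differed in Mll1, a histone methyltransferase encoded by *Kmt2a* that Cre deletes on both alleles in β-catGOF; Mll1-/- (n = 4) and on 1 allele in β-catGOF; Mll1+/- (n = 4). Tamoxifen was injected at 50 mg/kg on 3 consecutive days into mice of 4 to 6 weeks, and cells were taken 10 days after induction. Females and males were used and sex is not labelled, and no library without β-catGOF was compared, so the control cells carry active Wnt signalling too. Each library was made from a small pool of sorted cells by Smart-seq2, which amplifies cDNA without molecular identifiers. The counting errors given below therefore do not cover the amplification. Intervals on log2 fold changes come from the edgeR fit and take in the spread between mice.

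The libraries held between 14468751 and 16847793 counts on genes. The stem cell marker *Lgr5* was at 261 ± 19.9 CPM in β-catGOF; Mll1-/- and 271 ± 41.0 CPM in β-catGOF; Mll1+/- (SD, n = 4), where CPM relate the counts of a gene to the TMM-scaled total of its library. It is 1 of 15 stem cell markers, of which 1 was higher and 3 were lower at an unadjusted p under 0.05 in edgeR, beside 5.4% and 3.75% of all genes. No marker was called at an adjusted p under 0.1, and their median log2 fold change was -0.055 with 5 above and 10 below 0. Their summed level, in which abundant genes weigh most, did not overlap between the genotypes (11779 to 18648 against 24096 to 28638 CPM). *Kmt2a* counts were at 63.5 ± 10.7 CPM in libraries labelled β-catGOF; Mll1-/- and at 53.8 ± 7.45 CPM in the others (log2 fold change 0.24, adjusted p = 0.71 in edgeR's quasi-likelihood test), so counts over the whole gene did not check the genotype labels. The library numbers formed 2 runs, mice J_7075, J_7079, J_7096 and J_7100 as run 1 and J_7134, J_7135, J_7136 and J_7139 as run 2, each with 2 libraries of either genotype. Library J_7135 (β-catGOF; Mll1-/-) stood apart, with a best rank correlation to another library of 0.909 against at least 0.947 for the others, and it held both *Xist* (208 CPM) and Y-linked transcripts (165 CPM), whereas each of the other libraries held almost only 1 of them. Claudin values that it moves are given with and without it. By the same transcripts, both β-catGOF; Mll1-/- libraries of run 1 held Y-linked RNA (307 and 322 CPM) and both β-catGOF; Mll1+/- libraries of run 1 held *Xist* (523 and 517 CPM), so within run 1 genotype and sex cannot be told apart.

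Among the claudins, *Cldn3* and *Cldn4* are single-exon neighbours on chromosome 5 of GRCm38. *Cldn4* (ENSMUSG00000047501) lies on the minus strand from 134945119 to 134946934, and *Cldn3* (ENSMUSG00000070473) lies on the plus strand from 134986214 to 134987472, so the 2 genes are read away from each other with 39279 bases between them. No other gene of the count table lies wholly inside this interval. *Cldn7* (ENSMUSG00000018569) is on chromosome 11, from 69964779 to 69967885 on the plus strand. *Cldn12* (minus strand, from 5489537 to 5514958) and *Cldn15* (plus strand, from 136966616 to 136975858) are also on chromosome 5, *Cldn2* is on chromosome X from 139800828 to 139811386 on the plus strand, *Cldn8* is on chromosome 16 from 88560828 to 88563183 and *Cldn23* on chromosome 8 from 35824712 to 35826559, both on the minus strand. Reads were assigned to genes without strand. Of the exonic bases of *Cldn3*, 3.18% overlapped exons of *Wbscr25*, and 0.28% of the 31-base words of *Cldn4* transcripts also occurred in *Cldn3*, whereas no exon of the other 7 claudins overlapped another gene.

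The 250 bases before the start sites of *Cldn4*, *Cldn3* and *Cldn7* are shown because these genes had the largest differences between genotypes. RefSeq windows on GRCm38.p6 were found for 6 of the 8 claudins, and not for *Cldn8* and *Cldn23*. The *Cldn4* window is chr5:134946935-134947184 (minus strand), the *Cldn3* window is chr5:134985964-134986213 (plus strand) and the *Cldn7* window, before the first of its 2 RefSeq start sites, is chr11:69964529-69964778 (plus strand). Capitals mark GGGCGG, the GC box read by SP and KLF factors, on either strand.
Cldn4: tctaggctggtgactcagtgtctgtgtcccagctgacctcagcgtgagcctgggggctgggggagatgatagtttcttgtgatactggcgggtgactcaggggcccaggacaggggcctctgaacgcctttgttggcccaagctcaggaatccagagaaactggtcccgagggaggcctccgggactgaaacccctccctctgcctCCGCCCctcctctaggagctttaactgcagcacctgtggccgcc
Cldn3: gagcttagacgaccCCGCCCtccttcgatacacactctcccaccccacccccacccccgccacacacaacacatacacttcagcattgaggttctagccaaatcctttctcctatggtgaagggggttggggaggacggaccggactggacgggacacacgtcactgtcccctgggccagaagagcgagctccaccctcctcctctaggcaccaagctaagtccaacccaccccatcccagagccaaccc
Cldn7: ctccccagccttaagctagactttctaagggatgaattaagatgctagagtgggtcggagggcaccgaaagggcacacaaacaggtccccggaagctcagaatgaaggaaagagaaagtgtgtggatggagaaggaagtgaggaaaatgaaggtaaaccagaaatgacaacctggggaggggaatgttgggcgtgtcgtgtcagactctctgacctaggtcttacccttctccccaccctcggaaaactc
The *Cldn4* window held 1 such match, 44 to 39 bases before the start site, and the *Cldn3* window held 1, 236 to 231 bases before it. This *Cldn7* window held none, and the window before the other *Cldn7* start site held 1, 6 to 1 bases before it. The same letters occurred in 32.7% of 32851 RefSeq windows of this length. Neither the exact letters CTTTGA of the TCF/LEF core (13.8% of windows) nor AGATAA of the GATA core (9.99%) were found in these 3 windows on either strand. The Grhl sequence AACCNGTT (1.79%) and TATAAA (12.4%) were not found either. Near forms were not counted, such as CTTTGT and TGATAG in the *Cldn4* window. The windows are therefore not shown to lack sites for these factors.

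To compare levels between the claudins, CPM were divided by the length of the exons in kilobases. Over the 8 libraries, *Cldn7* was the most abundant claudin with 137 ± 35.8 CPM per kb (SD, n = 8), followed by *Cldn3* with 110 ± 33.1 and *Cldn15* with 81.1 ± 20.3 CPM per kb. *Cldn3* seals the paracellular space, *Cldn7* lies on lateral membranes as well as in junctions and binds EpCAM, and *Cldn15* forms channels for cations in the small intestine. *Cldn2*, the other cation and water channel of crypts, was at 31.1 ± 8.64 CPM per kb. *Cldn4* (10.5 ± 6.22), *Cldn8* (10.0 ± 4.69) and *Cldn12* (8.87 ± 2.37 CPM per kb) followed at lower levels, and *Cldn23* was lowest with 5.08 ± 1.73 CPM per kb. Within libraries, *Cldn7* lay above *Cldn3* in 8 of 8 and *Cldn3* above *Cldn15* in 7 of 8. The log2 ratio of *Cldn4* to *Cldn8* averaged 0.03 ± 1.11 and that of *Cldn8* to *Cldn12* 0.06 ± 0.76, so the order of these neighbours was not resolved beyond their spread over all libraries. The place of *Cldn4* turned with the genotype, since it lay at 10.1 to 23.4 CPM per kb and above *Cldn12* in all 4 libraries of β-catGOF; Mll1-/-, and at 5.01 to 7.18 CPM per kb and below *Cldn12* in all 4 of β-catGOF; Mll1+/-.

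The deposited table also held 30 further genes of the claudin group, of which 8 had no count in any library and only *Cldn19* and *Cldnd1* passed the filter on low counts. *Cldnd1*, a claudin-domain protein, was at 58.2 ± 11.8 against 59.7 ± 3.51 CPM and *Cldn19*, a claudin of the kidney, at 1.94 ± 0.27 against 2.59 ± 0.60 CPM in β-catGOF; Mll1-/- and β-catGOF; Mll1+/-. Neither passed the test, with adjusted p of 0.97 and 0.78. Claudins of other tissues were close to absent: *Cldn5*, the claudin of endothelium, had at most 1 count and *Cldn18*, the claudin of stomach and lung, at most 1 count in a library. *Cldn1* of skin and other epithelia had at most 3.

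The question put to the genotypes was which of these claudins differ when Mll1 is lost from β-catGOF stem cells. *Cldn4*, *Cldn3* and *Cldn7* had higher mean levels in β-catGOF; Mll1-/-, whereas the means of *Cldn2*, *Cldn8*, *Cldn12*, *Cldn15* and *Cldn23* lay within the spread between mice. None of the 8 claudins passed an adjusted p under 0.1, the false discovery level of the study, in edgeR's quasi-likelihood test with Benjamini-Hochberg adjustment over all genes, and 0.0851% of all genes tested did so. DESeq2, the package of the study's own test, called 1, *Cldn4*, and 2.74% of the 14817 genes to which it gave an adjusted p. Limma-voom called 0 and 0.626% of all genes. At an unadjusted p under 0.05, 3 of the 8 were higher and 0 lower, where 5.4% of all genes were higher and 3.75% lower. The log2 fold change was above 0 for 5 claudins and below 0 for 3, with a median of 0.06, and over all genes the median was 0.01 with 50.8% above 0. In pooled cells, a higher level per cell and more cells that express a gene cannot be told apart.

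**Figure D1:**
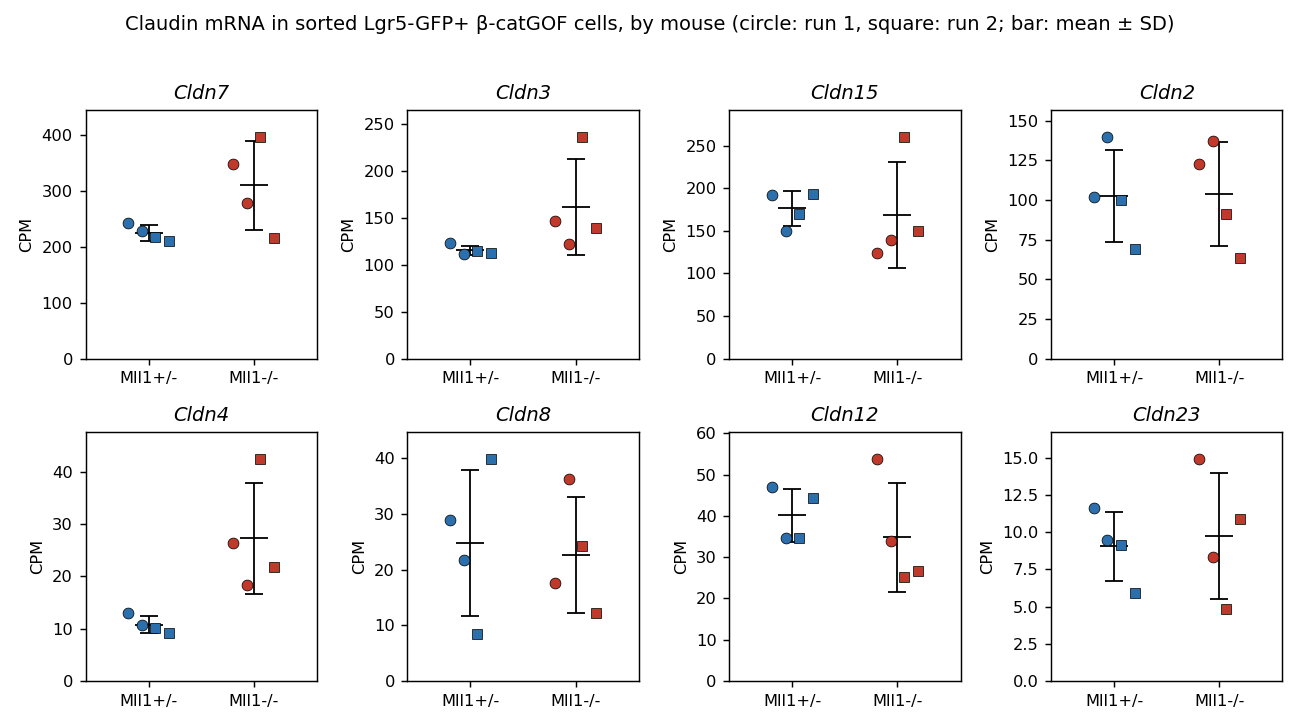
Claudin mRNA level in each library, in CPM on a linear axis from 0, with β-catGOF; Mll1+/- in blue and β-catGOF; Mll1-/- in red. Circles are mice of run 1 and squares mice of run 2, and bars give the mean ± SD (n = 4). *Cldn4* is the claudin whose genotypes do not overlap, with 9.10 to 13.04 CPM in β-catGOF; Mll1+/- and 18.4 to 42.5 CPM in β-catGOF; Mll1-/-.

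*Cldn4*, which tightens or changes the ion selectivity of junctions depending on its partners, had the largest difference. In β-catGOF; Mll1-/- it was at 26.4 CPM in J_7075, 18.4 in J_7096, 42.5 in J_7135 and 21.8 in J_7136. The β-catGOF; Mll1+/- values were 13.04 CPM in J_7079, 10.6 in J_7100, 10.2 in J_7134 and 9.10 in J_7139. Every library of the first group lay above every library of the second, a separation found in the same direction for 3.34% of all genes tested. The means were 27.3 ± 10.6 and 10.7 ± 1.66 CPM (SD, n = 4), with a log2 fold change of 1.34 (SE 0.29, 95% interval 0.70 to 1.99). The unadjusted p was 0.000986 and the adjusted p was 0.20 in edgeR. An exact two-sided permutation test of log2 CPM gave p = 0.029, the smallest that 70 assignments of the libraries allow. The difference had the same sign in both runs, 0.90 in run 1, where genotype and sex cannot be told apart, and 1.65 in run 2. Without J_7135 it was 1.05 (adjusted p = 0.13 in edgeR). With *Xist* above the Y-linked transcripts as a covariate it was 1.38 (adjusted p = 0.29 in edgeR). Among the alternative tests only DESeq2, which the study itself used, brought it past the threshold (1.35, adjusted p = 0.00186).

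*Cldn3* was at 147, 122, 236 and 139 CPM in J_7075, J_7096, J_7135 and J_7136 of β-catGOF; Mll1-/-. Among β-catGOF; Mll1+/- mice it was at 123, 112, 115 and 112 CPM in J_7079, J_7100, J_7134 and J_7139. J_7135 was far above the rest, and J_7096 lay just below the highest control, so the groups overlapped. The log2 fold change was 0.48 (SE 0.20, 95% interval 0.04 to 0.92, adjusted p = 0.51 in edgeR, exact permutation p = 0.057). The difference was 0.19 in run 1 and 0.68 in run 2, and without J_7135 it was 0.24 (adjusted p = 0.61).

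*Cldn7* was at 349, 279, 397 and 217 CPM in J_7075, J_7096, J_7135 and J_7136 of β-catGOF; Mll1-/-. In β-catGOF; Mll1+/- it was at 242, 228, 218 and 210.0 CPM in J_7079, J_7100, J_7134 and J_7139. The 3 highest libraries were all β-catGOF; Mll1-/-, and J_7136 lay among the controls. The log2 fold change was 0.47 (SE 0.18, 95% interval 0.07 to 0.86, adjusted p = 0.49 in edgeR, exact permutation p = 0.11), with 0.41 in run 1 and 0.45 in run 2. Without J_7135 it was 0.32 and without J_7136 it was 0.60, neither past the threshold (adjusted p = 0.61 and 0.30).

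For these 3 claudins, the mice of β-catGOF; Mll1+/- lay closer together than those of β-catGOF; Mll1-/-. The coefficient of variation of *Cldn3* was 4.54% in β-catGOF; Mll1+/- and 31.7% in β-catGOF; Mll1-/-. That of *Cldn7* was 6.14% and 25.5%, and that of *Cldn4* 15.5% and 39.0%. Without J_7135 the β-catGOF; Mll1-/- values were 9.36% for *Cldn3*, 23.5% for *Cldn7* and 17.99% for *Cldn4* (n = 3), so the wider spread of *Cldn3* and *Cldn4* rested largely on that library. The counting error at the lowest count of any library was 2.65% for *Cldn3* (1429 counts), 1.92% for *Cldn7* (2723 counts) and 8.87% for *Cldn4* (127 counts), below the spread between β-catGOF; Mll1-/- mice in each case. The wider spread was not particular to these claudins. The β-catGOF; Mll1-/- value was also the larger for *Cldn15* (37.0 against 11.9%), *Cldn12* (37.9 against 16.0%), *Cldn23* (43.7 against 25.9%) and *Cldn2* (31.8 against 28.1%). *Cldn8* went the other way (46.1 against 53.1%). The part of depth, cell makeup and sex in the wider spread was not tested.

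**Figure D2:**
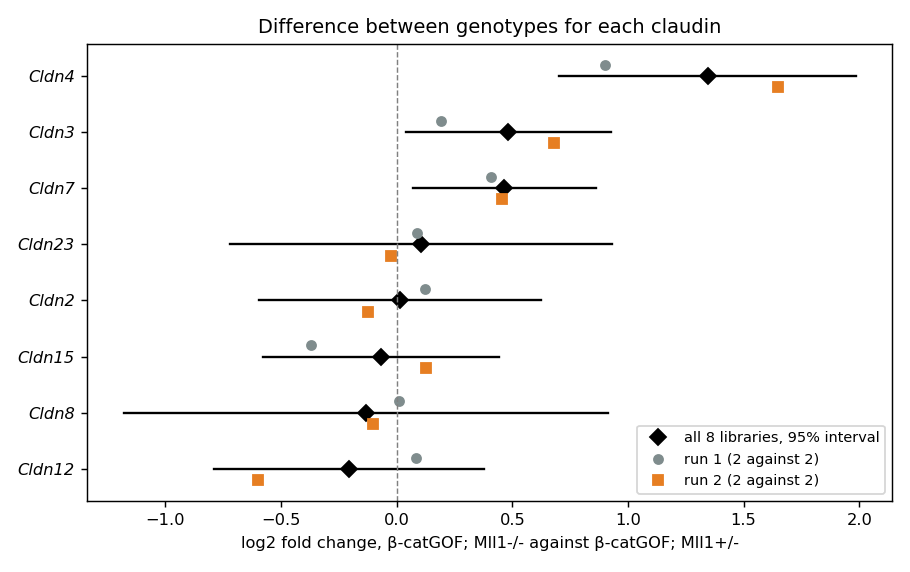
Log2 fold change of each claudin in β-catGOF; Mll1-/- against β-catGOF; Mll1+/-. Diamonds and lines are the edgeR estimate from 8 libraries with its 95% interval, and small symbols are differences of mean log2 CPM within run 1 and run 2. The intervals of *Cldn4*, *Cldn3* and *Cldn7* lie above 0 before adjustment, and *Cldn12* lies furthest below 0 at -0.21.

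*Cldn2* was at 123, 138, 91.2 and 63.6 CPM in J_7075, J_7096, J_7135 and J_7136 of β-catGOF; Mll1-/-. In β-catGOF; Mll1+/- it was at 102, 140, 99.8 and 69.3 CPM in J_7079, J_7100, J_7134 and J_7139. The ranges were almost the same, and in both groups the run 1 libraries lay above those of run 2. The log2 fold change was 0.01 (SE 0.27, 95% interval -0.59 to 0.62, adjusted p = 0.99 in edgeR). Because *Cldn2* is X-linked, it was also fitted with *Xist* above the Y-linked transcripts as a covariate, which gave -0.18 (adjusted p = 0.88).

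*Cldn15* was at 124, 139, 260 and 150 CPM in J_7075, J_7096, J_7135 and J_7136 of β-catGOF; Mll1-/-. Among β-catGOF; Mll1+/- mice it was at 192, 150, 170 and 193 CPM in J_7079, J_7100, J_7134 and J_7139. Apart from J_7135, which was the highest of all, the β-catGOF; Mll1-/- libraries were at or below the low end of this range, and the log2 fold change of -0.07 (SE 0.23, 95% interval -0.58 to 0.44, adjusted p = 0.96 in edgeR) was -0.36 without J_7135. *Cldn12*, a claudin linked to calcium uptake, ranged from 25.1 to 53.8 CPM in β-catGOF; Mll1-/- and from 34.6 to 46.9 CPM in β-catGOF; Mll1+/-, with a log2 fold change of -0.21 (SE 0.26, 95% interval -0.79 to 0.38, adjusted p = 0.86 in edgeR). The difference was 0.08 in run 1 and -0.60 in run 2, and the log2 fold change was -0.50 without J_7075 and -0.08 without J_7135.

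*Cldn8*, a sealing claudin best known from distal colon and kidney, varied most among the mice, with a coefficient of variation of 46.1% in β-catGOF; Mll1-/- and 53.1% in β-catGOF; Mll1+/-. Its lowest level was 8.50 CPM in J_7134 and its highest 39.9 CPM in J_7139, both β-catGOF; Mll1+/-, and the log2 fold change was -0.13 with a 95% interval from -1.18 to 0.91 (adjusted p = 0.96 in edgeR). *Cldn23*, a claudin of mature surface epithelium, ranged from 4.81 to 14.9 CPM in β-catGOF; Mll1-/- and from 5.94 to 11.6 CPM in β-catGOF; Mll1+/-. Its log2 fold change was 0.11 with a 95% interval from -0.72 to 0.93 (adjusted p = 0.96 in edgeR), so changes of up to these sizes could not be detected or dismissed with 4 mice a group.

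The makeup of the claudin pool was described as the share of each gene in the summed CPM per kb of all 8. *Cldn7* made up 36.5 ± 3.68% in β-catGOF; Mll1-/- and 32.8 ± 1.10% in β-catGOF; Mll1+/-, and *Cldn3* 29.2 ± 3.69% and 26.1 ± 0.72%. *Cldn15* made up 18.03 ± 3.54% and 23.6 ± 2.51%, and *Cldn2* 7.40 ± 2.77% and 8.81 ± 2.53%. The share of *Cldn4* was small in both, but ranged from 2.64 to 4.00% in β-catGOF; Mll1-/- and from 1.46 to 1.89% in β-catGOF; Mll1+/- without overlap. The summed level itself overlapped, at 341 to 584 CPM per kb in β-catGOF; Mll1-/- and 335 to 380 CPM per kb in β-catGOF; Mll1+/-.

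**Figure D3:**
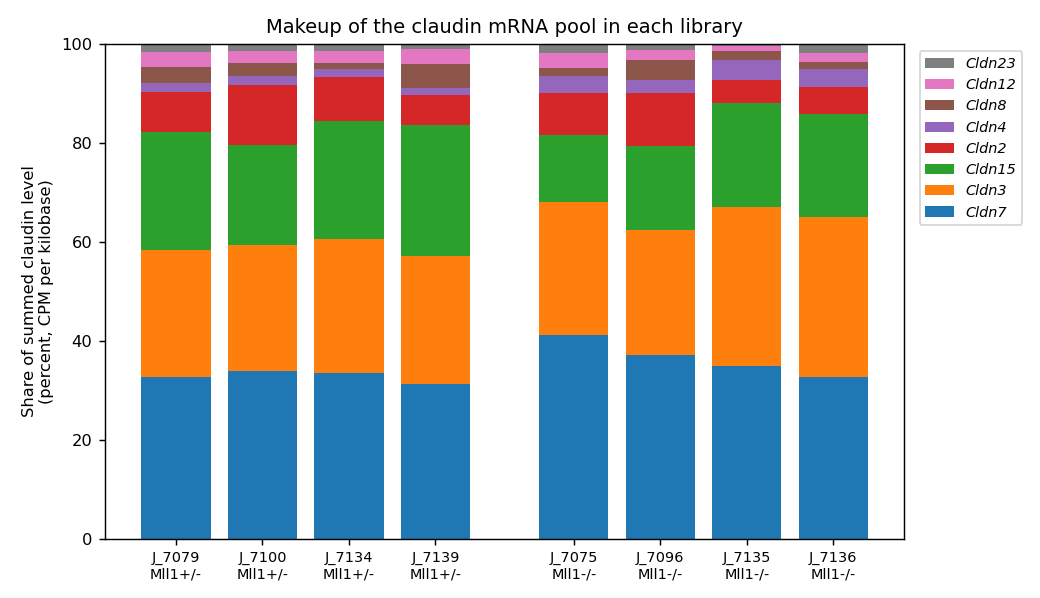
Share of each claudin in the summed claudin level (CPM per kilobase) of each library, in percent, with the 4 β-catGOF; Mll1+/- libraries on the left and the 4 β-catGOF; Mll1-/- libraries on the right. *Cldn7*, *Cldn3* and *Cldn15* fill most of each bar, and the *Cldn15* band is 20.3 to 26.4% on the left and 13.5 to 21.0% on the right.

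Ratios within a library do not depend on the scaling between libraries. The log2 ratio of *Cldn4* to *Cldn3* per length was -3.26 to -3.01 in β-catGOF; Mll1-/- and -4.15 to -3.77 in β-catGOF; Mll1+/-. The ratio of *Cldn4* to *Cldn7* also did not overlap, with -3.82 to -3.12 and -4.43 to -4.11. *Cldn3* to *Cldn7* overlapped, with -0.62 to -0.01 and -0.40 to -0.27. The separation of *Cldn4* relative to both of these claudins did not rest on J_7135, which was neither the lowest library of its group for *Cldn4* nor the only one above the controls.

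The channel-forming *Cldn2* and *Cldn15* were then set against *Cldn3*, *Cldn4* and *Cldn7* as a ratio of summed CPM per kb, a grouping chosen after the values were seen and therefore given with no test. The ratio was 0.31 in J_7075, 0.43 in J_7096, 0.36 in J_7135 and 0.38 in J_7136 of β-catGOF; Mll1-/-. The β-catGOF; Mll1+/- ratios were 0.53 in J_7079, 0.53 in J_7100, 0.53 in J_7134 and 0.55 in J_7139. The groups did not overlap, with means of 0.37 ± 0.05 and 0.54 ± 0.01 (SD, n = 4). In summed counts with no division by length, the ratio was 0.47 to 0.66 and 0.78 to 0.83. The denominator averaged 302 ± 81.9 against 213 ± 11.6 CPM per kb, whereas the numerator averaged 110 ± 27.3 against 114 ± 5.10 CPM per kb. With *Cldn15* alone as numerator, the ratio was 0.19 to 0.30 in β-catGOF; Mll1-/- and 0.33 to 0.45 in β-catGOF; Mll1+/-. With *Cldn2* alone the groups overlapped, at 0.066 to 0.17 and 0.10 to 0.20, so the separation was not shared by both channel-forming claudins. None of the 5 claudins passed the adjusted test of edgeR by itself, and DESeq2 called *Cldn4*.

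**Figure D4:**
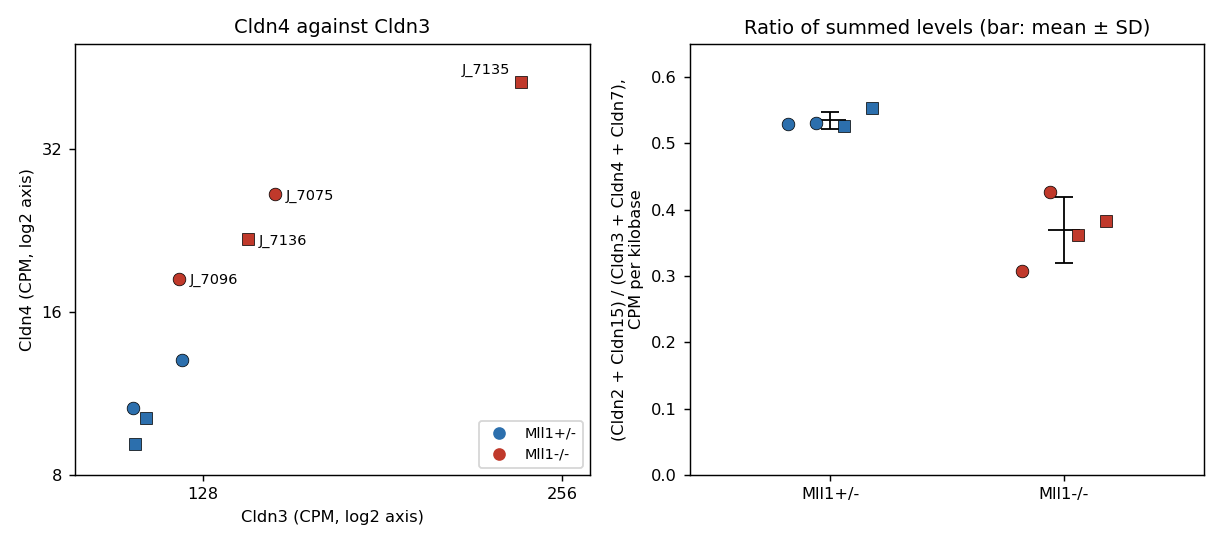
Left, *Cldn4* against *Cldn3* in CPM on log2 axes, with 1 point per library. Right, ratio of *Cldn2* plus *Cldn15* to *Cldn3* plus *Cldn4* plus *Cldn7* in CPM per kilobase, with mean ± SD (n = 4). β-catGOF; Mll1+/- is blue, β-catGOF; Mll1-/- is red, circles are run 1 and squares run 2. At like *Cldn3*, the β-catGOF; Mll1-/- library J_7096 has more *Cldn4* than the controls, and the ratio on the right lies at 0.53 to 0.55 in blue and 0.31 to 0.43 in red.

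Across the 8 libraries, *Cldn3* and *Cldn4* varied together, with Pearson's r of 0.91 and Spearman's rho of 0.90 for log2 CPM. The r was 0.94 without J_7135 and 0.91 without the 2 libraries farthest from the median of *Cldn3*. *Cldn4* and *Cldn7* had r = 0.86, which was 0.45 without the 2 farthest libraries, and *Cldn3* and *Cldn7* had r = 0.83, which was 0.11, so these relations rested on those libraries. These values are descriptions over libraries of both genotypes, which differ in depth and in markers of other cells. The part of these differences in the correlations was not tested. *Mettl27*, the nearest tested gene on the far side of *Cldn4*, was at 20.3 against 12.8 CPM with a log2 fold change of 0.66 (SE 0.38, adjusted p = 0.64 in edgeR).

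Of 8913 genes with a mean of at least 10 CPM, the one most like *Cldn3* over the 8 libraries was *Lsr* (r = 0.99, rho = 0.98), which encodes angulin-1 of the corners where 3 cells meet. Without the 2 farthest libraries the r was 0.85. *Mindy1* followed with r of 0.98. *Cldn4* was most like *Suv39h1*, *Zmiz2* and *Kcnn4* (r = 0.98, 0.98 and 0.97), and *Cldn7* was most like *Cdc7*, *H2afx* and *Zbed3* (r = 0.98, 0.96 and 0.96). *Cldn15* was most like *Tcn2*, *Usp32* and *Ppox* (r = 0.97, 0.97 and 0.96), *Cldn2* like *Ago1*, *Gm13493* and *Ssr1* (r = 0.95, 0.95 and 0.94), *Cldn12* like *Gm44250*, *Ywhaq* and *Senp2* (r = 0.96, 0.96 and 0.95) and *Cldn8* like *Yme1l1*, *Slc39a14* and *Pigq* (r = 0.93, 0.92 and 0.92). With so many genes compared over 8 libraries, the highest correlations are high by selection.

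Tight junctions also need scaffold proteins, other membrane proteins and polarity complexes, and 24 of 30 such partners passed the filter on low counts. None was called by edgeR and 1, *Crb3*, by DESeq2, where DESeq2 called 2.74% of all genes. At an unadjusted p under 0.05 in edgeR, 3 were higher and 1 lower, beside 5.4% and 3.75% of all genes, and the median log2 fold change was -0.04 with 10 above and 14 below 0. *Crb3*, the crumbs protein of the apical membrane, was at 32.3, 29.1, 39.1 and 33.7 CPM in β-catGOF; Mll1-/- (J_7075, J_7096, J_7135 and J_7136) and at 21.3, 20.3, 23.2 and 17.2 CPM in β-catGOF; Mll1+/- (J_7079, J_7100, J_7134 and J_7139). The groups did not overlap, as for 3.34% of all genes in this direction, with a log2 fold change of 0.71 (SE 0.18, adjusted p = 0.25 in edgeR). The atypical protein kinase *Prkci*, which acts in the same polarity network, had a log2 fold change of -0.59 (adjusted p = 0.42) and its adaptor *Pard6b* of -0.94 (adjusted p = 0.58), both without overlap between the genotypes as were 2.94% of all genes in this direction, and *Pard6b* was named after its values were seen.

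Among the scaffolds that tie claudins to actin, *Tjp1* was at 34.5 ± 11.1 against 37.6 ± 11.3 CPM (log2 fold change -0.12, adjusted p = 0.94 in edgeR). *Tjp3* had a log2 fold change of 0.36 and *Cgn*, cingulin, of -0.11 (adjusted p = 0.76 and 0.89). Of the other membrane proteins, *Lsr* was at 26.1 ± 15.6 against 14.1 ± 1.85 CPM (log2 fold change 0.88, adjusted p = 0.51), with 49.3 CPM in J_7135 and at most 20.3 CPM in the other libraries of its group. *Cxadr* had a log2 fold change of -0.46, *Ocln*, occludin, of -0.34, *Marveld2*, tricellulin, of 0.25, and *F11r*, the adhesion molecule JAM-A, of 0.06, all with adjusted p of 0.55 or more.

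Among 28 genes that bind or regulate claudins, 25 passed the filter on low counts and none was called by edgeR or DESeq2. At an unadjusted p under 0.05, 1 was higher and 1 lower, again beside 5.4% and 3.75% of all genes, and the median log2 fold change was 0.03. The kinase *Wnk4*, which phosphorylates claudins, was at 16.6 ± 7.21 against 8.08 ± 2.80 CPM (log2 fold change 1.03, adjusted p = 0.48 in edgeR), with 0.38 in run 1 and 1.58 in run 2. The tetraspanin *Cd81* had a log2 fold change of -0.39, the ubiquitin ligase *Lnx1* of 0.60, *Efnb1* of 0.41 and the vitamin D receptor *Vdr* of -0.25. Their adjusted p were 0.49, 0.65, 0.69 and 0.69 in edgeR, and *Lnx1* was at -0.08 in run 1 and 0.99 in run 2. *Epcam*, which stabilises *Cldn7* protein, was at 1516 ± 205 against 1356 ± 111 CPM (log2 fold change 0.16, adjusted p = 0.73).

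All 21 genes of the adherens junction and desmosome list were tested, none was called by edgeR and 2, *Dsp* and *Jup*, by DESeq2, beside 2.74% of all genes. In edgeR, 3 were higher and 1 lower at an unadjusted p under 0.05, beside 5.4% and 3.75% of all genes, and the median log2 fold change was 0.03. Desmoplakin, *Dsp*, was at 179, 200.4, 194 and 183 CPM in β-catGOF; Mll1-/- (J_7075, J_7096, J_7135 and J_7136) and at 252, 238, 231 and 259.6 CPM in β-catGOF; Mll1+/- (J_7079, J_7100, J_7134 and J_7139). These groups did not overlap, with a log2 fold change of -0.37 (SE 0.10, adjusted p = 0.26 in edgeR). Plakoglobin, *Jup*, did not overlap in the opposite direction (0.74, adjusted p = 0.38). Over all genes, 2.94% were lower and 3.34% higher without overlap. *Vcl*, vinculin, had a log2 fold change of 0.63, *Nectin1* of 0.81 and the plakophilin *Pkp3* of 0.78 (adjusted p = 0.50, 0.53 and 0.63 in edgeR). *Pkp3* changed sign between the runs, with -0.44 in run 1 and 1.59 in run 2. *Ctnnb1*, which carries the stabilising deletion in both groups, had a log2 fold change of 0.10 (adjusted p = 0.86).

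Levels of several markers of other cells differed between the genotypes in the same libraries, but edgeR called no gene of these lists at an adjusted p under 0.1. Over all genes, 5.4% were higher and 3.75% lower at an unadjusted p under 0.05 in edgeR. Of 15 goblet cell markers, 8 were higher and 1 lower at an unadjusted p under 0.05, their median log2 fold change was 1.09, and their summed level was 788 to 1371 CPM in β-catGOF; Mll1-/- and 671 to 871 CPM in β-catGOF; Mll1+/-. Of 15 Paneth cell markers, 1 was higher and 8 lower, with sums of 1914 to 5605 and 3662 to 6323 CPM. Of 12 enterocyte markers tested, 1 was higher and 5 lower with a median of -1.05, and their sums were 745 to 1032 and 920 to 1045 CPM. Of 9 enteroendocrine markers tested, 8 lay below 0 with a median of -1.48, and their sums did not overlap (9.63 to 14.3 and 16.9 to 76.6 CPM). Tuft cell markers, of which 4 were tested, summed to 11.1 to 24.7 and 11.04 to 15.2 CPM. The summed leukocyte markers were at 5.19 to 21.6 and 14.6 to 40.3 CPM, of which *Lyn* gave the most, with *Ptprc* below 1 CPM on average in both groups. Stromal and endothelial markers summed to 63.9 to 133 and 20.8 to 28.5 CPM, of which *Vim* gave 72.2 and 3.24 CPM on average, while *Col1a1*, *Col3a1* and *Cdh5* were below 1 CPM. The part of these cells in the claudin values was not tested.

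**Figure D5:**
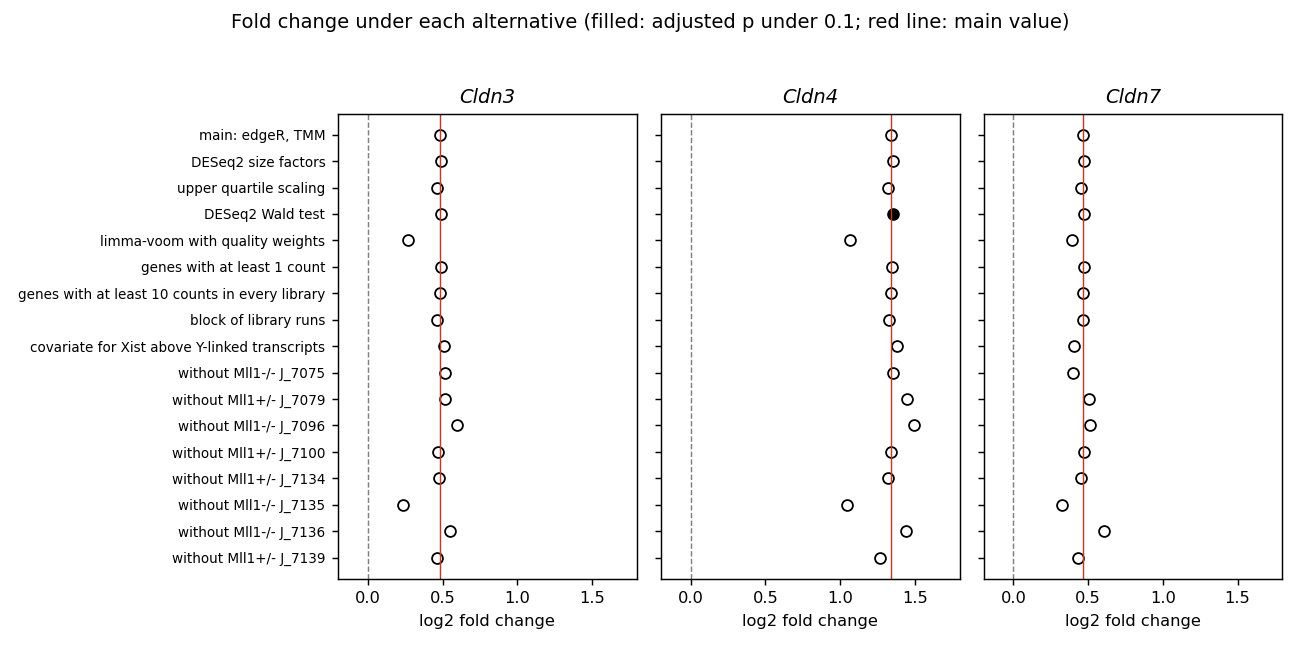
Log2 fold change of *Cldn3*, *Cldn4* and *Cldn7* in β-catGOF; Mll1-/- against β-catGOF; Mll1+/- under each other scaling, test, filter, covariate and with each library left out. Filled points passed an adjusted p under 0.1 and red lines mark the value from edgeR with all 8 libraries. Of the points shown, only *Cldn4* with DESeq2 is filled, *Cldn4* ranges from 1.05 to 1.49 and *Cldn3* is lowest at 0.24 without J_7135.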

How the data were processed

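The claudins, the gene lists and the tests were chosen with earlier results of these data known. Messenger RNA of sorted Lgr5-GFP+ cells was sequenced in 8 libraries, 1 per mouse. The authors aligned reads to mm10 with GSNAP, counted uniquely mapped reads per gene of Ensembl release 92 with featureCounts (1.6.3), and deposited raw counts for 53801 genes and 92 spike-in transcripts. A second deposited table holds signal for 25485 genes, each library's counts over its own size factor, which was used only to join symbols and identifiers. CPM per kb used the gene lengths, in bases, of the deposited count table.

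Low counts were removed by filterByExpr (minimum 10, and 15 over all libraries), and the remaining genes were scaled with TMM and fitted with the robust quasi-likelihood test of edgeR 4.0.16 (limma 3.58.1, R 4.3.3) with genotype as the only term. The adjustment ran over 16445 genes and an adjusted p under 0.1 was called, the false discovery level of the study's methods. The common biological coefficient of variation was 0.43. Depth was 14468751 to 16847793 counts, and 3 counts lay between 0.162 and 0.241 CPM. Correlations used log2 CPM with a prior count of 2. Permutation tests were exact over 70 assignments. Named genes were all 8 claudins, other claudins past the filter, 10 junction genes and controls whatever their values, the 5 smallest unadjusted p of each junction list and the 3 most similar genes per claudin with a mean of at least 10 CPM; marker genes, *Pard6b* and *Mettl27* were named after their values were seen, and 2 genes under this rule are not reported here. Alternatives were DESeq2 size factors, upper quartile scaling, DESeq2 1.42.0, limma-voom, other filters, a block of library runs, an *Xist* covariate and each library left out. DESeq2 is also the study's own test, there in version 1.22.2. Sequences came from RefSeq on GRCm38.p6, and shared 31-base words from GENCODE transcripts. Figures were drawn with matplotlib 3.10.9. The other assays of the study were not analysed here. P-values set the difference between the genotypes against the spread between these mice.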

Additional observations from a re-analysis of the deposited data

Results flagged for a closer look

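In 5 of 66 groups of 4 libraries, over the 33 genes tested for it, 1 library lay farther from the rest than Dixon's 95% critical value allows, and chance gives about 1 in 20 such groups. *Lsr* was at 49.3 CPM in J_7135 of β-catGOF; Mll1-/-, with 16.0 to 20.3 CPM in the others of its group. In β-catGOF; Mll1+/-, *Kmt2a* was at 64.9 CPM in J_7100 (others 48.9 to 51.2). *Ocln* was at 126 CPM in J_7134 (others 152 to 157), *Lnx1* was at 25.8 CPM in J_7134 (others 20.1 to 20.9), and *F11r* was at 54.7 CPM in J_7139 (others 67.2 to 69.1). None of the 8 claudins was among them.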

How the results depend on the processing

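The number of genes called in all was 14 with edgeR and TMM, 8 with upper quartile scaling, 406 with DESeq2, 103 with limma-voom, 47 with a filter of at least 1 count, 34 with at least 10 counts in every library, 0 with a block of library runs and 0 with the *Xist* covariate (1642 and 1616 genes had an unadjusted p under 0.05), and 0 to 45 with 1 library left out (45 without J_7135, 2 without J_7075, 0 without each other library, where 1189 to 1847 had an unadjusted p under 0.05 over the 8 fits). At least 1 count left 3359 genes with an unadjusted p under 0.05. DESeq2 called 1 claudin, *Cldn4* (1.35), 1 tight junction partner, *Crb3*, and 2 genes of the adherens junction and desmosome list, *Dsp* and *Jup*; edgeR and limma-voom called none of the 8 claudins in any setting run. The adjusted p of *Cldn4* was 0.129 to 0.492 with 1 library left out and 0.114 to 0.290 in the other edgeR and limma-voom settings. *Cldn3*, *Cldn4*, *Cldn7* and *Cldn12* kept their sign throughout, with *Cldn12* from -0.50 (without J_7075) to -0.08 (without J_7135). *Cldn2* changed sign with the run block (-0.0098) and the *Xist* covariate (-0.18), and *Cldn8* with the *Xist* covariate (0.12). With 1 library left out, *Cldn2* ranged from -0.15 to 0.20, *Cldn8* from -0.46 to 0.19, *Cldn15* from -0.36 to 0.046 and *Cldn23* from -0.18 to 0.33; the causes were not tested. The median of the adherens junction and desmosome list ranged from -0.018 to 0.11, and that of the other claudins was -0.074 with at least 1 count. With no division by length, the shares in β-catGOF; Mll1+/- were 14.6% for *Cldn2*, 16.4% for *Cldn3* and 5.70% for *Cldn12*. By Spearman's rho, 2 of the 3 genes most like *Cldn4* were shared with Pearson's r, 1 of those for *Cldn3*, *Cldn8* and *Cldn15*, and 0 of those for *Cldn2*, *Cldn7* and *Cldn12*. No paired analysis was possible because the genotypes share no replicate numbers. With 4 mice a group, a log2 fold change such as that of *Cldn8* was known only to within its interval of -1.18 to 0.91.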
